A study of Caenorhabditis elegans with 12 samples.

Results

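The cytochrome P450 genes of Caenorhabditis elegans were described in poly-A RNA from whole young adult worms, in 4 groups of 3 libraries. Members were taken by name: every gene whose WormBase symbol begins with cyp- was included, which gave 74 genes, all annotated as protein coding. Of these, 73 were among the 24619 genes read here, and cyp-13A11 was not analysed here. The set was also chosen by a measured value, since it was put forward because cyp-14A5 was high on sqd-1 RNAi in adr-2(-) worms. The members' values and counts of calls in that contrast are therefore given as a description, and nothing is read from them as a test.

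Wild-type worms were strain N2. The adr-2(-) worms were strain BB20 with the allele adr-2(ok735), a deletion in the gene for the RNA-editing adenosine deaminase ADR-2. Embryos of each genotype hatched and grew on plates with 1 of 2 kinds of RNAi bacteria. The control bacteria held an empty vector, and the others targeted sqd-1, the gene of the RNA-binding protein SQD-1. RNAi fed this way reaches many tissues, and each library pools the RNA of whole animals, so fewer cells of a type and less RNA per cell cannot be told apart. The labels give both 60 and 72 h of growth for the same animals, so no age in hours is assigned. They do not say whether the libraries of a group came from separate cultures, and p-values then measure only the spread between these libraries, which may be technical.

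Cytochrome P450 enzymes hold a heme iron with which they insert oxygen into fatty acids, sterols and foreign compounds. Most of them sit in the endoplasmic reticulum and receive electrons from a P450 reductase, which in C. elegans is EMB-8, whereas mitochondrial P450 enzymes are served by a separate electron chain. Worm P450 genes include the cyp-35A group, which foreign compounds induce in the intestine, and cyp-31A2 and cyp-31A3, which together with EMB-8 are needed to make lipids of the eggshell's permeability barrier.

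Values are normalized reads, whole read counts that the authors divided by a factor per library, and each comparison uses the table in which the authors normalized its 6 libraries together. The libraries held 29042770 to 33984832 reads, of which ribosomal RNA took 28.97% to 57.8%. The target of the RNAi, sqd-1, was at 12626, 16795 and 15141 normalized reads in the wild-type control libraries and at 1375, 1429 and 1399.5 on sqd-1 RNAi. In adr-2(-) worms it was at 11358, 27882 and 17624 on control RNAi and at 1754, 1106 and 1261 on sqd-1 RNAi. The adr-2 gene stayed below 5 normalized reads in every adr-2(-) library, against 848 to 1072 in the wild-type controls. Replicate 2 of both adr-2(-) groups stood apart from its group: the summed level of 10 intestine markers was 126011 and 145103 there, against 41948 to 61183 in the other 4 adr-2(-) libraries. Hypodermis and cuticle markers were also highest there, at 45427 and 35068, against 20600 to 28450. Oocyte and early embryo markers were highest of their group there too, at 226632 on control RNAi and 104922 on sqd-1 RNAi. Sperm and body wall muscle markers were not highest there in both groups. On sqd-1 RNAi in wild-type worms, all 10 sperm markers rose and 10 of 12 oocyte and early embryo markers fell, with median log2 fold changes of 1.90 and -2.86. Of 10 intestine markers, 1 rose (ifb-2) and none fell, with a median of -0.16. Of 7 hypodermis and cuticle markers 3 rose and 2 fell, and of 4 body wall muscle markers 3 rose.

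Not all P450 genes were expressed in these worms. Over the 12 libraries, 52 of the 73 members averaged at least 10 normalized reads and 25 averaged at least 100. In cyp-13A12, cyp-33B1 and cyp-33C1 no library held more than 3 reads, the limit used here for a gene near 0. The first of these, an enzyme known for its part in the behavioural response to returning oxygen, had 0 to 3 reads per library. Members lay on every chromosome, with 41 on V, 12 on II, 7 each on IV and X, 6 on III and 1 on I, in the Ensembl annotation of build WBcel235 matched by gene identifier.

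Levels can be compared between genes only per length of exon, and on that scale cyp-13A6 was the highest P450 transcript of wild-type control worms. It had 3742 ± 982 (SD, n = 3) normalized reads per kb of exon, with all 12 libraries put on 1 scale. The cyp-31A genes of the eggshell pathway followed, with 833 ± 112 for cyp-31A2 and 603 ± 86.6 for cyp-31A3. Next came cyp-34A9 at 551 ± 174 and cyp-31A5 at 505 ± 23.6. From cyp-31A3 to cyp-31A5, neighbours in this order differed by less than the wider of their SDs, while cyp-13A6 stood far above the rest. In the same libraries cyp-14A5 ranked 10th, at 193 ± 8.59 per kb. On sqd-1 RNAi its mean was 1837 per kb for N2 and 2032 for adr-2(-) worms.

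The member that changed most was cyp-14A5 (WBGene00000373, chromosome V, 5421018 to 5423282, minus strand, WBcel235), a CYP-14 family gene with 1561 bp of exon that overlaps no other gene in the annotation. In the wild-type control libraries it had 315, 302 and 326 normalized reads, and on sqd-1 RNAi 2629, 3600.4 and 2540.5. Every sqd-1 RNAi library lay far above every control library. The means were 314 ± 11.5 and 2923 ± 588 (SD, n = 3), a 9.30-fold rise, with a log2 fold change of 3.20 ± 0.17 (SE) and an adjusted p of 3.66e-07. Fold changes are differences of log2(normalized reads + 1), and p-values are from limma over all 14489 genes tested, adjusted by Benjamini and Hochberg. The call held in all 17 other settings tried, where the log2 fold change lay between 3.04 and 3.41.

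In adr-2(-) worms, the contrast by which the gene was selected, cyp-14A5 was at 279, 244 and 279 on control RNAi and at 2578, 3196 and 3295 on sqd-1 RNAi. The groups did not overlap, and their means were 267 ± 20.5 and 3023 ± 388, a ratio of 11.3 and a log2 fold change of 3.49. Taken by replicate number, the log2 difference lay between 3.20 and 3.71 for adr-2(-) worms, and from 2.96 to 3.57 for N2. Between genotypes the levels lay close together, also as a description: in the tables that compare them, the adr-2(-) mean was 0.917 times the wild-type mean on control RNAi and 1.10 times on sqd-1 RNAi, and the libraries overlapped in each case. The other tested CYP-14 genes, cyp-14A1, cyp-14A2 and cyp-14A4, lie together on the X chromosome, and in wild-type none of them passed the test, with log2 fold changes from -0.35 to 0.54.

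**Figure D1:**
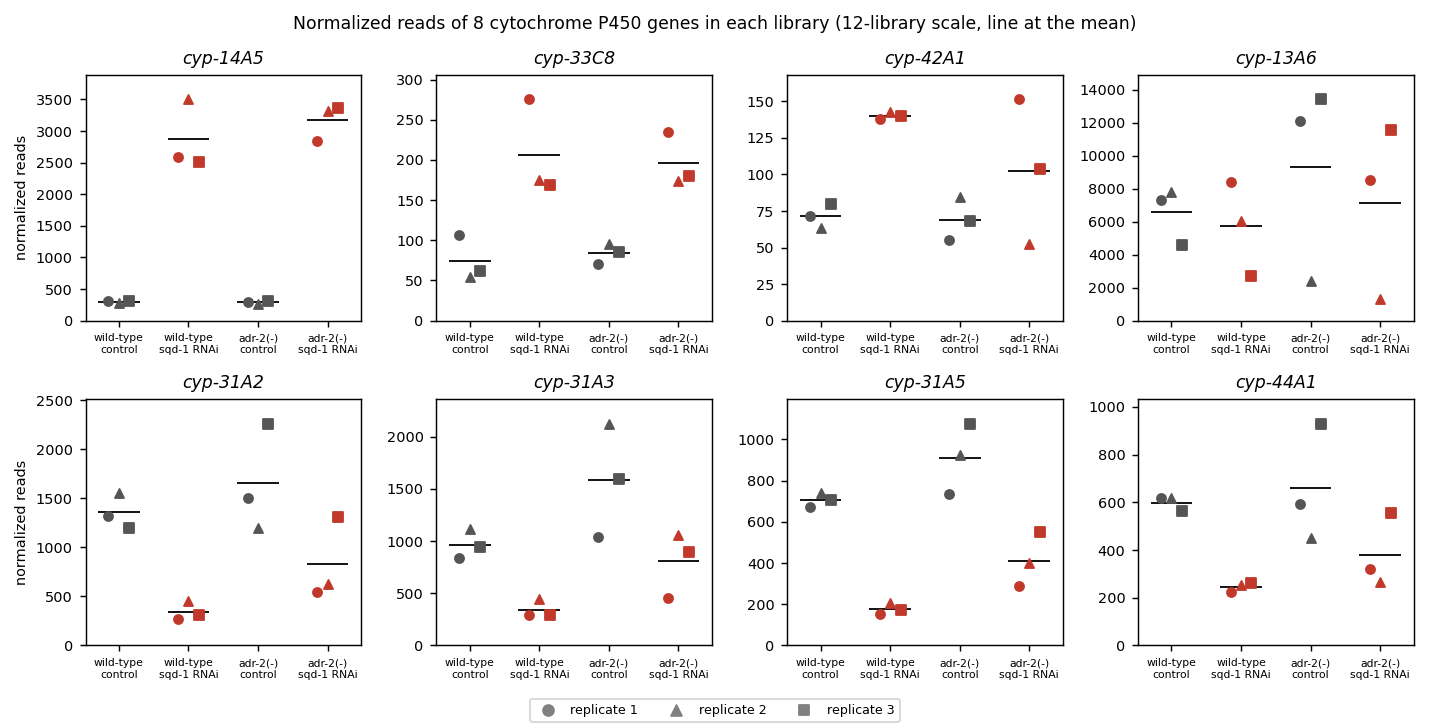
Normalized reads (vertical axes, linear, from 0) of 8 cytochrome P450 genes in each of the 12 libraries, put on 1 scale; points are libraries (grey control RNAi, red sqd-1 RNAi) shaped by replicate number, and lines are means of 3. The cyp-14A5 points lie between 266 and 309 in the 6 control RNAi libraries and between 2516 and 3504 in the wild-type sqd-1 RNAi libraries, while cyp-13A6 is spread from 1298 to 13442 without separating the RNAi groups.

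Among all P450 genes in wild-type worms, 55 were abundant enough to test, with a mean of at least 10 normalized reads over the 6 libraries. On sqd-1 RNAi 14 rose and 6 fell (adjusted p under 0.05), where 27.3% of all 14489 genes tested rose and 33.8% fell. The median log2 fold change of the 55 members was 0.40, against 0.04 for all genes, and 38 of them were positive and 17 negative. Scaling by TMM or upper quartile raised the median of all genes to 0.18 and 0.20. With upper-quartile scaling 21 members rose and 5 fell, and edgeR on the recovered reads called 23 and 5, so the balance between rises and falls depends on the scaling. The same settings called 33.5% of all genes higher and 30.3% lower with upper-quartile scaling, and 35.9% and 28.7% with edgeR. When same-numbered libraries were paired by a replicate block, there were 17 rises and 7 falls, where 29.7% and 36.1% of all genes were called. It added cyp-13A5, cyp-25A3 and cyp-37B1 to the rises and cyp-35A2 to the falls. An adjusted p under 0.05 was given to 18 members in the authors' deposited table, 13 higher and 5 lower. They were the members called here except cyp-25A1 and cyp-33C5. Of all 17805 genes given an adjusted p there, 3673 were higher and 4828 lower at that level.

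**Figure D2:**
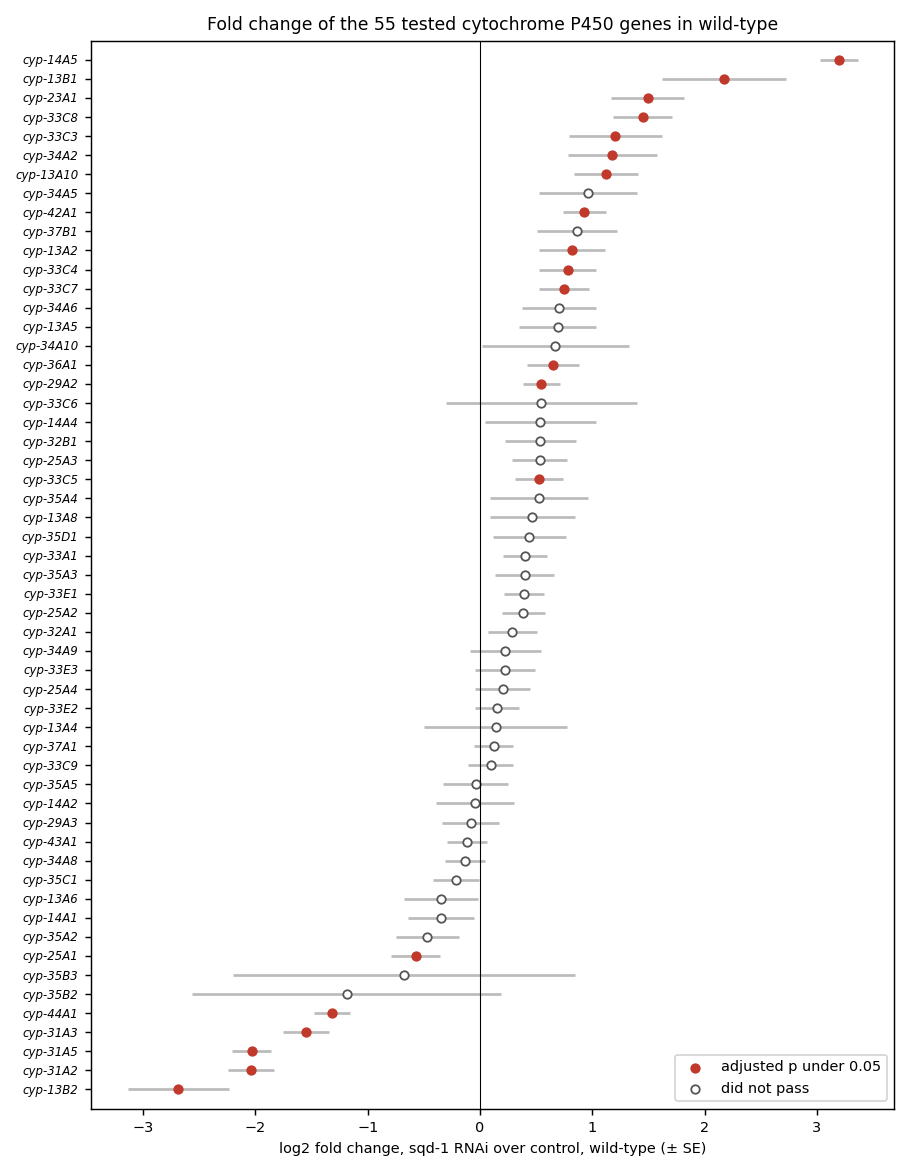
Log2 fold change on sqd-1 RNAi over control RNAi in wild-type worms (horizontal axis, bars are SE) for the 55 tested cytochrome P450 genes (vertical axis, ordered by fold change); filled points had an adjusted p under 0.05. The filled points run from -2.69 for cyp-13B2 to 3.20 for cyp-14A5, with cyp-14A5 well to the right of the rest.

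The rises were spread over 8 P450 families, with 5 of them in the CYP-33 family. The highest after cyp-14A5 among well expressed members was cyp-33C8, a CYP-33 gene at 3800782 to 3803542 on chromosome V. It had 108, 58.1 and 65.5 normalized reads in the control libraries and 281, 179 and 171 on sqd-1 RNAi, with no overlap. Its means were 77.3 ± 27.2 and 210.2 ± 61.2, a log2 fold change of 1.45 ± 0.27 with an adjusted p of 0.000369. An array elsewhere on the same chromosome holds cyp-33C4, cyp-33C3, cyp-33C5, cyp-33C6 and cyp-33C7 between 2236140 and 2252591. All 5 were tested and 4 rose, with cyp-33C6 at 0.54 ± 0.85 (SE, adjusted p 0.595) the exception. Of the 4, cyp-33C7 was the most abundant. It went from 113, 104 and 67.3 to 163, 158 and 147 normalized reads, a log2 fold change of 0.75 ± 0.22 (adjusted p 0.00966). All 11 tested members of the family had positive fold changes, with a median of 0.53, while 6 of them did not pass. Tandem copies such as these can share reads, and how reads that fit several places were counted is not given in the sources used here.

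Members of other families rose too. For cyp-42A1, a CYP-42 gene of chromosome V, the control libraries held 72.6, 67.5 and 84.3 normalized reads and the sqd-1 RNAi libraries 140.3, 146 and 141. The replicates were tight and far apart between groups, with means of 74.8 ± 8.60 and 143 ± 3.29 and a log2 fold change of 0.93 ± 0.19 (adjusted p 0.000963). Reads of cyp-36A1, which in C. elegans acts downstream of the oxygen sensor EGL-9 and HIF-1, were 209, 130 and 198 in controls and 364, 245 and 232 on sqd-1 RNAi. Its log2 fold change was 0.65 ± 0.23 with an adjusted p of 0.0266. The gene lies across figo-1 on the opposite strand, and whether the counting used strand is not given in the sources used here. The hif-1 and egl-9 transcripts themselves had log2 fold changes of -0.01 and -0.03 and did not pass. In the CYP-29 family, cyp-29A2 had 258, 216 and 225 normalized reads in controls and 311, 366 and 345 on sqd-1 RNAi. This rise was 0.55 ± 0.17 on the log2 scale, at an adjusted p of 0.0124.

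Several rises were of genes with few reads. The only member of its family, cyp-23A1, went from a mean of 12.9 ± 1.23 to 39.4 ± 12.7 normalized reads, with a log2 fold change of 1.49 ± 0.33 (adjusted p 0.00136). The CYP-13 gene cyp-13B1 went from 2.05, 10.8 and 10.8 to 17.8, 34.7 and 57.1, a log2 fold change of 2.18 ± 0.55 (adjusted p 0.00386). For cyp-13A10 the means were 21.1 ± 3.05 and 47.7 ± 11.6, with a log2 fold change of 1.12 ± 0.29 (adjusted p 0.00407). None of these 3 genes overlapped between groups. The 5 rises not described so far were cyp-13A2 (0.82), cyp-33C3 (1.20), cyp-33C4 (0.78), cyp-33C5 (0.53) and cyp-34A2 (1.18). Of these, cyp-13A2 was not a gene with few reads. With all 12 libraries on 1 scale, its means were 178 in wild-type controls and 314 on sqd-1 RNAi.

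All 3 genes of the CYP-31 family fell, with a median log2 fold change of -2.03. In the wild-type control libraries cyp-31A2, one of the genes for eggshell lipids, had 1349, 1650.1 and 1265 normalized reads, and on sqd-1 RNAi 277, 467 and 311. The groups were far apart, with means of 1422 ± 202 and 352 ± 101, which is 24.8% of the control mean, and a log2 fold change of -2.04 ± 0.20 (adjusted p 4.62e-06). Its close copy cyp-31A3 had 853, 1179 and 996 in controls and 296, 457 and 293 on sqd-1 RNAi. That was 34.6% of the control mean and a log2 fold change of -1.55 ± 0.20 (adjusted p 2.73e-05). The sequences of cyp-31A2 and cyp-31A3 are known to be near-identical, so the division of reads between them is uncertain. The third gene, cyp-31A5, went from 686, 784.5 and 746 to 154, 213 and 176.003, or 24.5% of the control mean (log2 fold change -2.03 ± 0.17, adjusted p 2.44e-06). It overlaps Y62E10A.19 on the opposite strand, and the use of strand in counting is not given in the sources used here. The CYP-31 genes fell along with the oocyte and early embryo markers, whose summed level was 100948 to 136412 in the wild-type control libraries and 17162 to 35844 on sqd-1 RNAi. The part of the markers' change in the fall of the CYP-31 genes was not tested.

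The mitochondrial P450 gene cyp-44A1 also fell. It had 628, 658 and 595 normalized reads in controls and 227, 261 and 266 on sqd-1 RNAi, without overlap. The log2 fold change was -1.32 ± 0.16, with an adjusted p of 1.61e-05. The gene overlaps npp-24 on the same strand, so its reads cannot be fully separated from those of npp-24. The largest fall was that of cyp-13B2, a low gene of chromosome X, from 38.9, 43.2 and 26.01 to 4.19, 9.39 and 2.32 normalized reads (log2 fold change -2.69 ± 0.45, adjusted p 0.000189). Its relative cyp-13B1, also on X, went the opposite way. The smallest called fall was that of cyp-25A1, from 121 ± 22.9 to 80.9 ± 13.7 (log2 fold change -0.57 ± 0.22, adjusted p 0.0357), in an array with cyp-25A2, cyp-25A3 and cyp-25A4, none of which passed.

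Of the 20 called members, 13 kept the call whichever single wild-type library was left out, and 11 also kept it in every other setting in which they were tested: cyp-13A10, cyp-13B1, cyp-13B2, cyp-14A5, cyp-23A1, cyp-31A2, cyp-31A3, cyp-31A5, cyp-33C8, cyp-42A1 and cyp-44A1. The other 7 lost it without at least 1 library. Leaving out sqd-1 RNAi replicate 1 gave adjusted p-values of 0.128 for cyp-36A1, 0.135 for cyp-13A2, 0.103 for cyp-34A2, 0.0935 for cyp-33C3, 0.0727 for cyp-33C4, 0.0618 for cyp-33C5 and 0.0955 for cyp-25A1. Leaving out control replicate 2 gave 0.134 for cyp-36A1, 0.0669 for cyp-13A2, 0.0552 for cyp-34A2, 0.0630 for cyp-33C4, 0.0568 for cyp-33C5 and 0.0673 for cyp-25A1. Without control replicate 3 the value was 0.116 for cyp-13A2, 0.0680 for cyp-34A2, 0.0754 for cyp-33C3 and 0.0915 for cyp-33C5. Without sqd-1 RNAi replicate 3 it was 0.102 for cyp-25A1 and 0.107 for cyp-33C5, and without control replicate 1 it was 0.130 and 0.0894. The log2 fold change of cyp-33C3 went from 1.20 to 0.63 without control replicate 3. Without control replicate 2, that of cyp-36A1 was 0.43, and without control replicate 3 that of cyp-13A2 was 0.53. For cyp-33C5 the adjusted p without sqd-1 RNAi replicate 2 was 0.147. Another 8 members, not called with all 6 libraries, passed when 1 library was left out, at adjusted p-values of 0.0118 to 0.0449. They were cyp-13A5, cyp-34A9 and cyp-35A3 without sqd-1 RNAi replicate 3, cyp-25A2 without sqd-1 RNAi replicate 1, cyp-33E1 without control replicate 1, and cyp-34A6 and cyp-35A2 without control replicate 3. The last, cyp-25A3, passed without control replicate 1 and also without sqd-1 RNAi replicate 3.

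The xenobiotic-inducible CYP-35 family did not move with sqd-1 RNAi as a group: 8 of its 10 members were tested, none passed, and the median log2 fold change was -0.13. The most abundant, cyp-35A2, which in C. elegans is linked to fat storage, had 779, 537 and 334.5 normalized reads in controls and 474, 419.5 and 265 on sqd-1 RNAi. Each RNAi library was below the control library of the same number, but the groups overlapped, and the log2 fold change was -0.47 ± 0.28 with an adjusted p of 0.165. With the replicate block it passed, at 0.0121, and without control replicate 3 it passed at 0.0162. The range over all other settings reached 0.604. The expression of cyp-35B2 and cyp-35B3 came from single libraries: they had 50 and 56 reads in wild-type control replicate 2 and 13 and 23 in wild-type sqd-1 RNAi replicate 3. No other library had more than 2 reads of either. Their neighbour cyp-35B1, a gene downstream of the insulin pathway's DAF-16, was too low to test, with 2 to 19 reads per library.

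Neither of the eicosanoid enzymes followed here, cyp-29A3 and cyp-33E2, passed the test. For cyp-29A3, which takes part in making eicosanoids in C. elegans, the means were 122 ± 30.98 and 115 ± 32.6 normalized reads, with a log2 fold change of -0.08 ± 0.25 (adjusted p 0.787). Its sign turned in 5 settings, among them TMM, upper-quartile and edgeR scaling. For cyp-33E2, another eicosanoid enzyme, the means were 143 ± 15.1 and 159 ± 27.1, with a log2 fold change of 0.15 ± 0.20 (adjusted p 0.526). The low gene cyp-37B1 had 10.2, 9.45 and 8.07 in controls and 19.9, 16.9 and 16.2 on sqd-1 RNAi, with no overlap, yet its adjusted p of 0.05004 missed the threshold. With the replicate block it was 0.0431, and over all settings it reached 0.182. The largest array of P450 genes, 10 members of the CYP-34 and CYP-35 families between 3936326 and 3972991 on chromosome V, had 8 tested genes and no call, with log2 fold changes from -1.19 to 0.96. Its most abundant gene, cyp-34A9, was at 1193, 1110.0 and 642 in controls and 1739, 1241 and 631 on sqd-1 RNAi (log2 fold change 0.23 ± 0.32, adjusted p 0.551). It passed, at 0.0349, without sqd-1 RNAi replicate 3.

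The partners of P450 enzymes were followed by lists chosen with earlier results known, and their counts stand beside the 27.3% of all genes that rose and the 33.8% that fell. Of 5 electron partners and epoxide hydrolases, 2 rose and 1 fell in wild-type worms, with a median of 0.21. The fall was of emb-8, the P450 reductase, from 3234, 3040 and 3027 to 2155, 2168 and 2009 normalized reads, with no overlap (log2 fold change -0.55 ± 0.14, adjusted p 0.00414). The rises were of ceeh-1, an epoxide hydrolase that acts on P450 products (0.61, adjusted p 0.0136), and of the cytochrome b5 gene cytb-5.2 (0.48, adjusted p 0.0414). Of 9 tested genes of the sterol hormone pathway, 4 rose and none fell, with a median of 0.39. They were the hormone receptor daf-12 (0.69), the dehydrogenase dhs-16 (1.91), the sterol transporter ncr-2 (1.92) and the methyltransferase strm-1 (1.33). The P450 of that pathway, daf-9, which is not named cyp-, had 22.5, 44.6 and 44.8 reads in controls and 43.97, 45.99 and 51.7 on sqd-1 RNAi, and did not pass (0.39 ± 0.30, adjusted p 0.263).

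Worms cannot make heme and take it up by HRG transporters. Of 9 tested genes of heme handling, 1 rose and 4 fell, with a median of -0.27. The rise was of hrg-9, from 45.7 ± 8.29 to 149 ± 40.0 normalized reads (log2 fold change 1.66, adjusted p 5.89e-05). The falls were of hrg-1 (-0.77), hrg-3 (-1.50), hrg-7 (-0.55) and the heme exporter mrp-5 (-0.60). Of 16 regulators reported for P450 genes, 1 rose and 5 fell, with a median of -0.27, a share of falls close to that of all genes. The aryl hydrocarbon receptor gene ahr-1 had 206 ± 9.41 normalized reads in controls and 465 ± 141 on sqd-1 RNAi, a rise of 1.13 on the log2 scale (adjusted p 0.000441). Transcripts of the nuclear receptors nhr-49 (-0.73), nhr-66 (-1.52) and nhr-86 (-0.85), of the coactivator mdt-15 (-0.49) and of the stress factor skn-1 (-0.72) fell.

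In adr-2(-) worms, whose contrast was used to choose the set, the members' values and counts of calls on sqd-1 RNAi are a description only. Of 52 members fitted there 1 had an adjusted p under 0.05, namely cyp-14A5, for which the set was put forward, so nothing is read from this count. The share over all 14068 genes was 0.0284%. With any single library left out the count was 0, while the log2 fold change of cyp-14A5 stayed between 3.42 and 3.60. With the replicate number as a block, 4 members were called higher and 6 lower, where 17.1% and 28.5% of all genes were called. The higher ones were cyp-14A5, cyp-33C8, cyp-13A10 and cyp-33C7, and the lower ones cyp-13B2, cyp-31A5, cyp-31A2, cyp-31A3, cyp-44A1 and cyp-13A6. The call of cyp-14A5 follows from how the set was chosen, and nothing is read from these counts either. With pair 2 left out, the pair that stood apart, the block gave 9 and the fit without it 0. Of all genes, those fits called 5605 and 0. In the authors' deposited table cyp-14A5 and cyp-33C8 had an adjusted p under 0.05. They were 2 of 61 members given an adjusted p there, against 1408 of 16242 genes. The median log2 fold change of the 52 members was 0.29, against -0.03 for all genes.

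The 19 other members called in wild-type all had the same sign in adr-2(-) worms, as did 99.4% of the 8634 wild-type calls that could be tested in the mutant. The change was smaller in adr-2(-) for 17 of the 19, against 72.4% of those calls. Both sets were picked by passing in wild-type, which favours large wild-type changes. Members also had wider errors there, with a median SE of 0.27 against 0.20 for all genes. No weaker response of the P450 genes in the mutant is therefore read from these shares. No library is shared between the 2 contrasts. For cyp-31A2 the adr-2(-) libraries held 1431, 1098 and 2066 normalized reads on control RNAi and 496, 604 and 1283 on sqd-1 RNAi, a log2 fold change of -1.03. Each RNAi library was below its control of the same number, by 1.53, 0.861 and 0.688 on the log2 scale, and sqd-1 RNAi replicate 3 was above control replicate 2. For cyp-31A5 the values were 701, 848 and 984 against 261.5, 385 and 539, with no overlap (-1.14). For cyp-33C8 they were 67.9, 87.5 and 78.0 against 213, 167 and 177, also with no overlap (1.24).

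**Figure D3:**
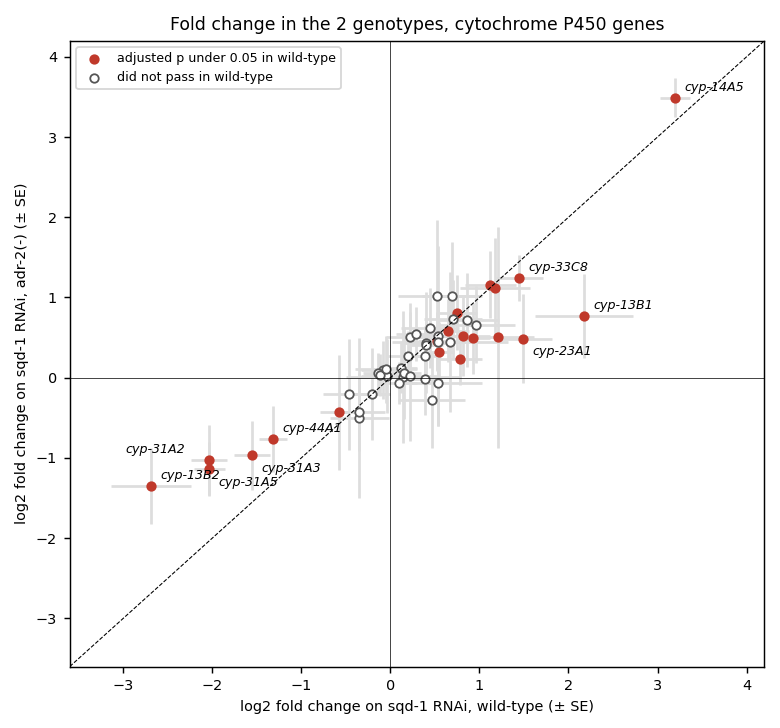
Log2 fold change on sqd-1 RNAi in wild-type worms (horizontal axis) and in adr-2(-) worms (vertical axis) for the 52 cytochrome P450 genes tested in both, bars are SE and the dashed line marks equal change; filled points passed the test in wild-type. The gene cyp-14A5 lies at 3.20 and 3.49, and the CYP-31 genes lie above the dashed line, nearer to 0 in adr-2(-) worms.

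Whether the response differed by genotype was tested as an interaction over all 12 libraries. None of the 52 members passed, with or without the replicate block, where 0.0% of all 14348 genes passed in either fit, and edgeR and DESeq2 also called none. At an unadjusted p under 0.05 there was 1 member without the block and 6 with it, against 207 and 1427 of all genes. The 6 included all 3 CYP-31 genes. For cyp-31A5 the fall was smaller in adr-2(-) by 0.82 ± 0.17 on the log2 scale with the block (adjusted p 0.142, and 1.00 without the block), and for cyp-31A2 by 0.94 ± 0.22 (0.164, and 1.00 without). None of the 12 oocyte and early embryo markers passed the interaction test in limma either, and 5 without and 10 with the block had an unadjusted p under 0.05. Their median log2 fold change was -2.86 for N2 and -1.26 for adr-2(-) worms. The part of this in the values of the CYP-31 genes was not tested.

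Loss of adr-2 by itself was compared within each RNAi treatment. On control RNAi, none of 49 tested members passed, where 0.00737% of 13566 genes did, and none had an unadjusted p under 0.05, against 7.43% of all genes. Apart from cyp-14A5, 46 of 48 had a log2 difference within 1 of 0. The extremes were -1.75 for cyp-35B3, which had reads in a single wild-type control library, and 1.08 for cyp-13A8. On sqd-1 RNAi, none of 52 members passed, where 0.0% of 14697 genes did. EdgeR and DESeq2 called none of the members in either comparison. Of all genes, DESeq2 called 266 and edgeR 0 on sqd-1 RNAi, and each called 1 on control RNAi. The 4 members with an unadjusted p under 0.05 on sqd-1 RNAi were cyp-31A2, cyp-31A3, cyp-31A5 and cyp-13B2, all higher in adr-2(-), against 12.1% of all genes at that level. The wild-type and adr-2(-) means were 369 ± 96.6 and 877 ± 442 normalized reads for cyp-31A2, and 5.51 ± 3.68 and 24.7 ± 10.6 for cyp-13B2. Their adjusted p-values were 0.388, the lowest among the members.

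In worms with both adr-2 loss and sqd-1 RNAi, set against wild-type controls, 54 members were tested and 1, cyp-14A5, had an adjusted p under 0.05, where 0.0422% of 14206 genes did. This comparison shares its sqd-1 RNAi libraries with the one used to choose the set, so cyp-14A5 is described only: 297 ± 15.7 against 3117 ± 341 normalized reads. The next member was cyp-33C8, at 73.4 ± 27.8 and 192 ± 28.5, with an adjusted p of 0.0874. The count was 0 when any single wild-type control library was left out and 4 when replicate 2 of the adr-2(-) sqd-1 RNAi group was, and DESeq2 called 2. Of all genes, 0 to 3 were called without a control library, 1847 without that replicate 2, and 830 by DESeq2.

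Replicates of the P450 genes were spread more widely than those of all genes in wild-type worms. The members and all genes were not matched for read level, and the part of low reads in this was not tested. The median SD of log2 values within a group was 0.38 and 0.33 for 52 members in the control and sqd-1 RNAi groups, against 0.21 and 0.22 for 14348 genes. In adr-2(-) worms it was 0.49 and 0.55, against 0.48 and 0.50. The standard error of a log2 fold change followed, with medians of 0.27 for members and 0.20 for all genes in wild-type, and of 0.48 and 0.42 for the mutant. Single libraries were low for many members at once. Replicate 2 was the lowest of 3 for 34 of 52 members among adr-2(-) controls and for 37 among adr-2(-) sqd-1 RNAi libraries, against 35.8% and 40.8% of all genes. In wild-type, sqd-1 RNAi replicate 3 was the lowest for 34 members, against 34.5% of all genes.

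The most abundant member, cyp-13A6, was among them. On the 12-library scale it had 7308, 7828 and 4610 normalized reads in wild-type controls, 8426, 6038 and 2728 on sqd-1 RNAi, 12121, 2390 and 13442 in adr-2(-) controls and 8521, 1298 and 11552 on sqd-1 RNAi. Both adr-2(-) replicate 2 libraries were several times below their group, and the RNAi groups overlapped in each genotype. In wild-type its log2 fold change was -0.35 ± 0.33 (adjusted p 0.373). The summed level of all members was 11137 and 10887 in the adr-2(-) replicate 2 libraries, against 20819 to 26972 in the other adr-2(-) libraries. Without cyp-13A6 the sums were 8747 and 9588 against 10954 to 14970. The intestine, hypodermis and cuticle, and oocyte and early embryo markers were highest of their group in these same libraries, as given above. The part of these markers in the P450 values was not tested.

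**Figure D4:**
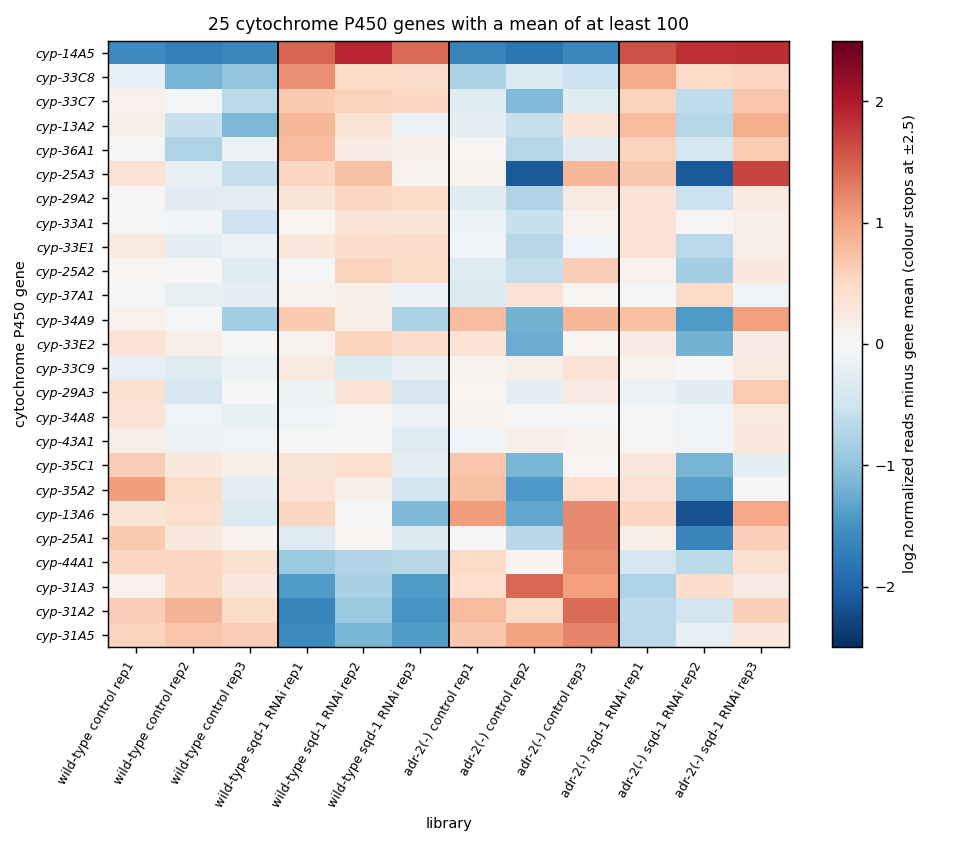
Log2 normalized reads minus the gene's mean over 12 libraries (colour, blue low and red high) for the 25 cytochrome P450 genes (rows) that averaged at least 100, ordered by the mean difference between sqd-1 RNAi and control RNAi; columns are libraries and black lines separate the 4 groups. The top row, cyp-14A5, and the bottom rows, the CYP-31 genes and cyp-44A1, follow the RNAi treatment, while cyp-13A6, cyp-25A3 and cyp-34A9 are lowest in adr-2(-) replicate 2.

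By Pearson's r of log2 values over the 12 libraries, the members most like cyp-14A5 were cyp-33C8 (0.90), cyp-13A10 (0.88), cyp-34A6 (0.73), cyp-33A1 (0.72) and cyp-34A5 (0.72). In wild-type the last 3 did not pass the test, with log2 fold changes of 0.70, 0.40 and 0.96, although the groups of each did not overlap. Among all 14347 genes compared, cyp-33C8 came 276th and cyp-13A10 413th. The genes most like cyp-14A5 were fog-3 (0.99), which specifies sperm fate, ugt-29 (0.98), T23B7.2 (0.97), timm-17B.2 (0.97) and gst-24 (0.97). These values describe libraries that fall into 2 RNAi groups and share their depth and scaling.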

How the data were processed

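The authors deposited 5 pairwise tables of 6 libraries each. Per the file headers, their columns are log2 fold changes and standard errors, p-value and adjusted p, and a normalized signal for every library. STAR 2.7.10b and DESeq2 are named in the submitters' processing notes; the build, the read counter and its use of strand are not given in the sources used here. Libraries were made with a stranded poly-A kit, per the labels' protocols. Dividing signals by their smallest step gave whole reads for 100% of the 667263 values checked (within 0.01 read). Among these, 0 values differed between tables of the same library. Values of wild-type control replicate 1 in the comparison with adr-2(-) sqd-1 RNAi were not checked in this way. Replicates were not copies, with a chi-square per degree of freedom of 23.5 to 536.

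Each comparison was fitted in its own table with limma 3.58.1 (R 4.3.3; lmFit and trended eBayes). Values entered as log2(value + 1), genes averaging under 10 were left out, and p-values had Benjamini-Hochberg adjustment over all of them and a threshold of 0.05. The interaction used all 12 libraries on median-of-ratios factors. EdgeR 4.0.16 and DESeq2 1.42.0 on recovered reads, other scalings, pseudocounts of 0.1 and 10, filters, the replicate block and leaving out each library were alternatives. Same-numbered libraries deviated together within a genotype (r of 0.24 to 0.27 in wild-type and 0.63 to 0.82 in adr-2(-), over 14348 genes). The numbers were therefore treated as pairs there. Unlike-numbered libraries within wild-type had r of -0.17 to -0.09. Between genotypes r ran from -0.52 to 0.21 for same-numbered libraries. It reached 0.39 for unlike-numbered ones, above the wild-type values, so the pairing in wild-type is not certain.

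Of the gene identifiers, 24602 matched the Ensembl WBcel235 annotation and 22915 had a symbol. The tables were matched to it by identifier. Read limits cover counting error only. The members and lists were chosen with earlier results of these data known. Genes named were cyp-14A5; up to 10 largest rises and falls that passed in wild-type, if the groups did not overlap and the higher averaged 100 or more; members that passed elsewhere; the 5 highest per kb; the 5 most like cyp-14A5; and members with known roles. Called members outside this rule are named with their values seen. Protein and promoter sequences were not analysed here.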

Additional observations from a re-analysis of the deposited data

How the results depend on the processing

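In wild-type worms the count of 20 called P450 genes was 13 with a minimum mean of 50 (8 higher, 5 lower), by which fewer genes were tested, and 12 with all 12 libraries fitted together, which shares the wider spread of the adr-2(-) libraries. Leaving out 1 library gave 14 to 22, and the other settings 18 to 28. Of all genes, the minimum mean of 50 called 7538 and all 12 libraries together 4960, against 8849 in the main fit. The replicate block, a paired analysis within a genotype, gave 24 in wild-type and 10 in adr-2(-) in place of 1. For adr-2 loss with sqd-1 RNAi against wild-type control it gave 0 in place of 1. That comparison crosses genotypes, where same-numbered libraries were not seen to pair. The block changed no other count of members. In adr-2(-), all 12 libraries together gave 4, DESeq2 2, leaving out 1 library 0 to 0, and leaving out pair 2, chosen after seeing the data, 0 without and 9 with the block. For adr-2 loss with sqd-1 RNAi the values were 2 with all 12 libraries and with DESeq2, and 0 to 4 without 1 library. Of all genes, all 12 libraries together called 3162 in adr-2(-) and DESeq2 1408. For adr-2 loss with sqd-1 RNAi those settings called 248 and 830 of all genes, and leaving out 1 library 0 to 1847. For the interaction and for adr-2 loss within either RNAi treatment, every setting gave 0. For 23 single-gene results there were 388 pairs of a result and a setting, of which 344 held, 20 newly passed, 16 no longer passed and 8 changed sign. The 344 include every setting of cyp-14A5 in the contrasts that use adr-2(-) sqd-1 RNAi libraries, 19 and 17 of them. There its fold change is a description only, and settings in which its call was lost are counted as held. The sign changes were of cyp-13A6, cyp-34A9 and cyp-29A3, and their cause was not tested. For cyp-13A6 the value was 0.12 without sqd-1 RNAi replicate 3, with -0.70 to 0.12 over libraries left out. For cyp-34A9 the turned values were -0.05 and -0.10, with -0.10 to 0.63 over libraries left out. For cyp-29A3 the sign turned in 5 settings, among them TMM (0.048), upper quartile (0.072) and edgeR (0.10). Its range was -0.30 to 0.10. With 3 libraries a group, genes with few reads had wide errors.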

Other observations

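The genes around cyp-14A5 were looked at after its values were seen. Within 20 kb lie 9 other protein-coding genes, of which 8 were tested in wild-type worms. On sqd-1 RNAi 4 rose and 2 fell, where 27.3% of all genes tested rose and 33.8% fell. The rises were of C25A6.1 (log2 fold change 1.77), F08F3.4 (0.55), F08F3.8 (1.84) and snpc-1.3 (3.67), the last a subunit that directs transcription of male germline piRNAs. The falls were of F08F3.6 (-3.31), the nearest gene on the same strand, and acl-6 (-1.49), an acyltransferase. The gene rhr-1, on the other side of cyp-14A5, had 2858, 3172 and 3332 normalized reads in controls and 3232, 3198 and 3376 on sqd-1 RNAi and did not pass (0.07, adjusted p 0.693).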
